A study of Mus musculus with 6 samples.

Results

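The collagen gene family was described in the hearts of newborn mice from a series on diabetes in pregnancy. Its members were all rows of the deposited table that are annotated as protein-coding and carry a collagen chain symbol, Col followed by a type number and a chain number. There were 44 such genes among 54532 rows, of which 22046 were protein-coding. By structural class they comprised 11 fibrillar chains, 6 basement membrane chains of type IV, 7 beaded-filament chains (type VI and the related Col28a1), 9 fibril-associated chains, 3 network-forming chains of types VIII and X, 2 multiplexins, 4 transmembrane chains and 2 chains outside these classes. RNA was sequenced from 6 heart samples of mice at day 4, all wild type and of the outbred ICR stock. The STZ group (n = 3) were offspring of mothers given an intraperitoneal injection of STZ, read here as streptozotocin, a toxin of pancreatic beta cells that raises blood glucose, while pregnant. The control group (n = 3) were offspring of mothers given citric acid by the same route. The sources used here give neither the dose, nor the maternal glucose, nor the litter of each sample, nor whether hearts were pooled. P-values therefore measure only the spread between these 6 samples, which may share a litter.

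A collagen molecule is a triple helix of polypeptide chains, in which every turn places a glycine at the centre of the rope. Fibrillar collagens of types I, III and V pack into the banded fibres that give the heart wall its tensile strength. Type IV forms the sheet-like network of the basement membrane around cardiomyocytes and capillaries, and type VI forms beaded microfilaments that link these layers. In the heart, fibroblasts make most of the fibrillar chains, while endothelial cells, pericytes and cardiomyocytes contribute type IV. Excess fibrillar collagen is the defining feature of fibrosis, a process named in the title of the series.

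The glycine repeat that unites the family can be read in the coding sequences. The following stretches, each of 72 bases, come from GENCODE M21 transcripts on GRCm38 and are shown for the chains on which the results below turn. Capitals mark the glycine codons (GGN) that open each repeat unit of 9 bases, and for Col4a1 the stretch crosses the end of its longest run, where 10 codons without the repeat separate it from the next unit. Counted from the start codon, the stretches cover codons 168 to 191 of Col1a1, 164 to 187 of Col3a1, 151 to 174 of Col4a1, 2165 to 2188 of Col6a3 and 352 to 375 of Col8a1.
Col1a1: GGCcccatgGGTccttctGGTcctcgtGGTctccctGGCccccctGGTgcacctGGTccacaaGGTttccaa
Col3a1: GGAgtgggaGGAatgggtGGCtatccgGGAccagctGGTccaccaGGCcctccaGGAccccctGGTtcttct
Col4a1: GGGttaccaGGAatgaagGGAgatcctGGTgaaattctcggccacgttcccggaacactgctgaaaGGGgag
Col6a3: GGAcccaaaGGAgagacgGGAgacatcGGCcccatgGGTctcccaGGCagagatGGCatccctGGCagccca
Col8a1: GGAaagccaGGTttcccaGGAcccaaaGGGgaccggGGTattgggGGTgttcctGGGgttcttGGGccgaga
Col1a1 (ENSMUSG00000001506, GRCm38 chromosome 11, 94936224 to 94953042, plus strand) carried 338 such units in a row, and Col3a1 (ENSMUSG00000026043, GRCm38 chromosome 1, 45311538 to 45349706, plus strand) carried 344. The longest run of Col4a1 (ENSMUSG00000031502, GRCm38 chromosome 8, 11198423 to 11312826, minus strand) held 40 units, that of Col6a3 (ENSMUSG00000048126, GRCm38 chromosome 1, 90765923 to 90843971, minus strand) 45, and that of Col8a1 (ENSMUSG00000068196, GRCm38 chromosome 16, 57624258 to 57754737, minus strand) 61. Across the 11 fibrillar chains the longest run had a median of 338 units and a minimum of 216 (Col24a1). Across the 6 basement membrane chains it lay between 39 (Col4a3) and 66 (Col4a2) units. A run of at least 10 units occurred in 98 of 21571 genes with a coding sequence, among them all 44 chains. The other 54 included the collagen-like C1qa, C1qb and C1qc of complement and the adipocyte hormone Adipoq, but also Ncl, Dhx9 and Krt2. Any glycine codon that opened a unit was counted, whatever the other codons, so a run alone does not mark a triple helix.

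The deposited values are of FPKM type, that is reads per kilobase of gene and per a library scale set by the authors. The whole reads recovered from them numbered 16707268 in the shallowest library and 18082599 in the deepest. Control 2 stood apart from the other 5 libraries, with the authors' scale at 1.21 times its recovered reads against 0.985 to 1.03 times elsewhere. Its markers of other tissues also stood apart. The summed FPKM of 8 atrial markers was 131, 49.2 and 85.1 in STZ hearts 1 to 3, against 54.3, 6319 and 59.1 in control hearts 1 to 3. All 8 atrial markers, all 5 brown fat markers and all 6 thymocyte markers were highest in control 2. The summed FPKM of the brown fat markers was 18.4, 19.9 and 23.0 in STZ hearts 1 to 3, against 23.4, 310.3 and 21.3 in control hearts 1 to 3. Ucp1, the uncoupling protein that defines brown fat, was at 213 FPKM in control 2 and was listed at 0 in the other 5 libraries. The summed FPKM of 6 thymocyte markers was 1.17, 0.399 and 0.572 in STZ hearts 1 to 3, against 0.383, 67.5 and 1.29 in control hearts 1 to 3. Cardiomyocyte markers summed to 7968 FPKM in control 2 and to between 15612 and 18671 FPKM in the other libraries, so the labelled tissue was present in all 6. The 10 fibroblast markers, chosen without collagens, summed to 320.0, 353 and 339 in STZ hearts 1 to 3, against 386, 626 and 384 in control hearts 1 to 3. The part of these tissues in the collagen values was not tested. Fold changes are therefore given with all libraries and without control 2. In bulk RNA, fewer cells of a type and less RNA per cell cannot be told apart.

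**Figure D1:**
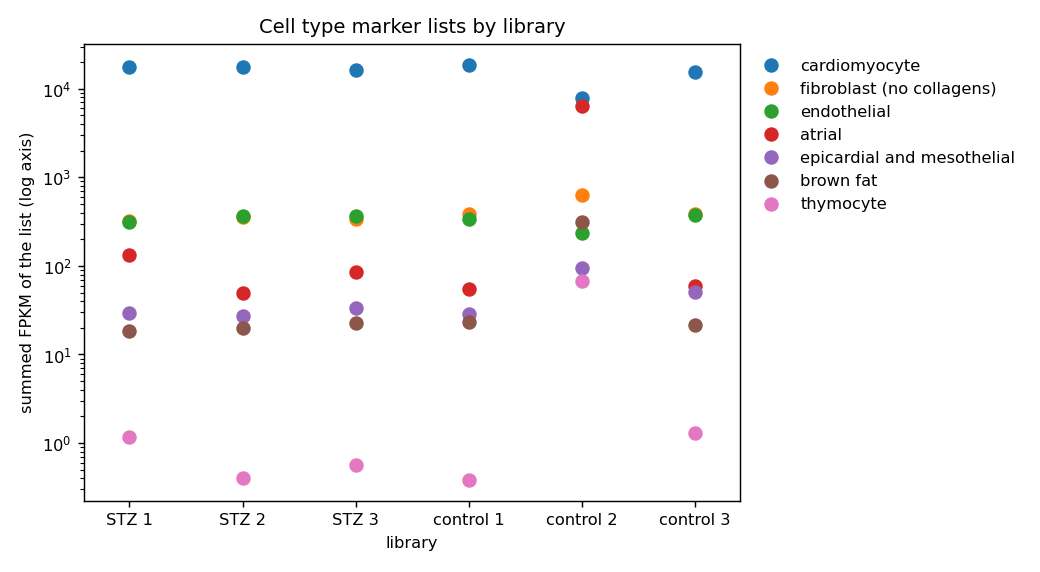
Summed FPKM of 7 cell type marker lists (log axis) in each library, with the STZ libraries at the left and the control libraries at the right. Control 2 was the highest for atrial, brown fat, thymocyte, epicardial and fibroblast markers and the lowest for cardiomyocyte and endothelial markers.

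All 44 chains had reads in at least 1 library, and 37 had reads in all 6. In 14 chains the mean over the 6 libraries was at least 10 FPKM, in 13 it lay between 1 and 10 FPKM, and in 17 it was below 1 FPKM. The same 5 chains were the most abundant in every library: Col3a1, Col4a1, Col1a1, Col4a2 and Col1a2. Col4a1 ranked first in all 3 STZ hearts, and Col3a1 ranked first in all 3 control hearts. The family as a whole took 1.06, 1.08 and 1.12 percent of all recovered reads in STZ hearts 1 to 3, against 1.02, 2.04 and 1.19 percent in control hearts 1 to 3. The 3 STZ libraries thus lay between control 1 and control 3, and control 2 stood far above them. Fibrillar chains made up 45.8, 44.1 and 44.2 percent of the summed collagen FPKM in STZ hearts 1 to 3, against 46.9, 63.2 and 49.8 percent in control hearts 1 to 3. Basement membrane chains made up 36.1, 37.9 and 37.1 percent in STZ hearts, against 34.4, 19.5 and 31.9 percent in control hearts. On this measure of composition each STZ heart held a smaller fibrillar and a larger basement membrane share than any control heart, and control 1 was the control heart nearest to the STZ range.

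**Figure D2:**
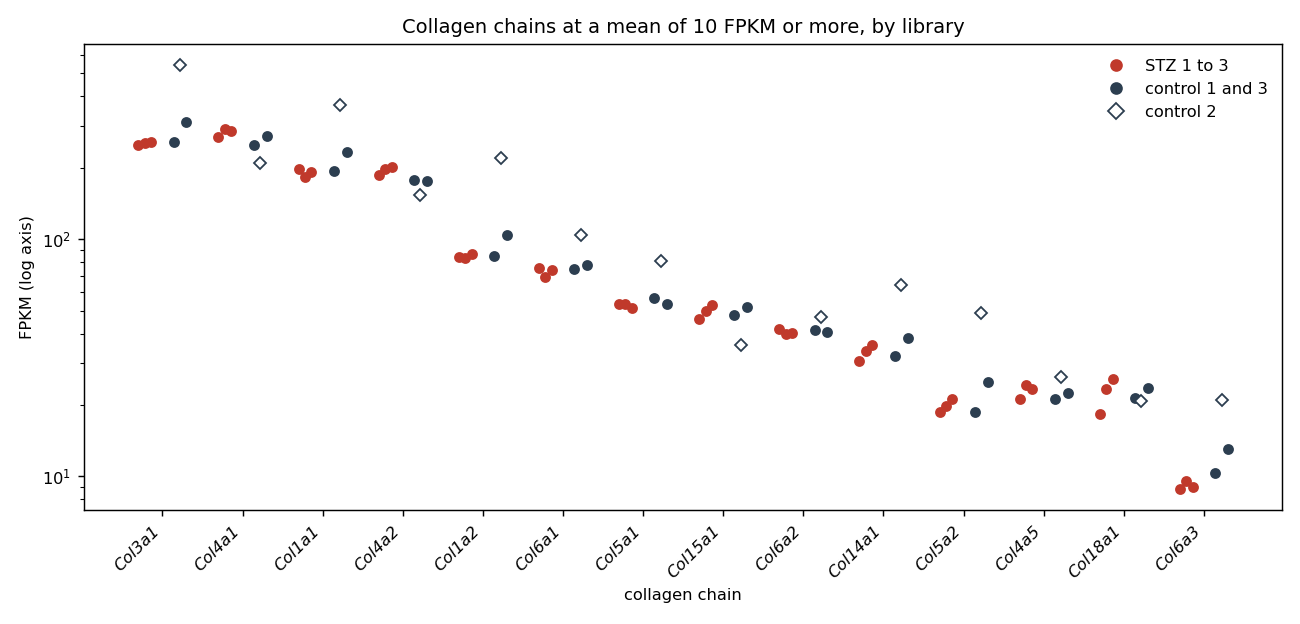
FPKM (log axis) of the 14 collagen chains at a mean of 10 FPKM or more, with the 3 STZ libraries left of the 3 control libraries for each chain. The open diamond is control 2, which lies above the other libraries for Col3a1, Col1a1, Col1a2 and Col5a2 and below them for Col4a1, Col4a2 and Col15a1.

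**Figure D3:**
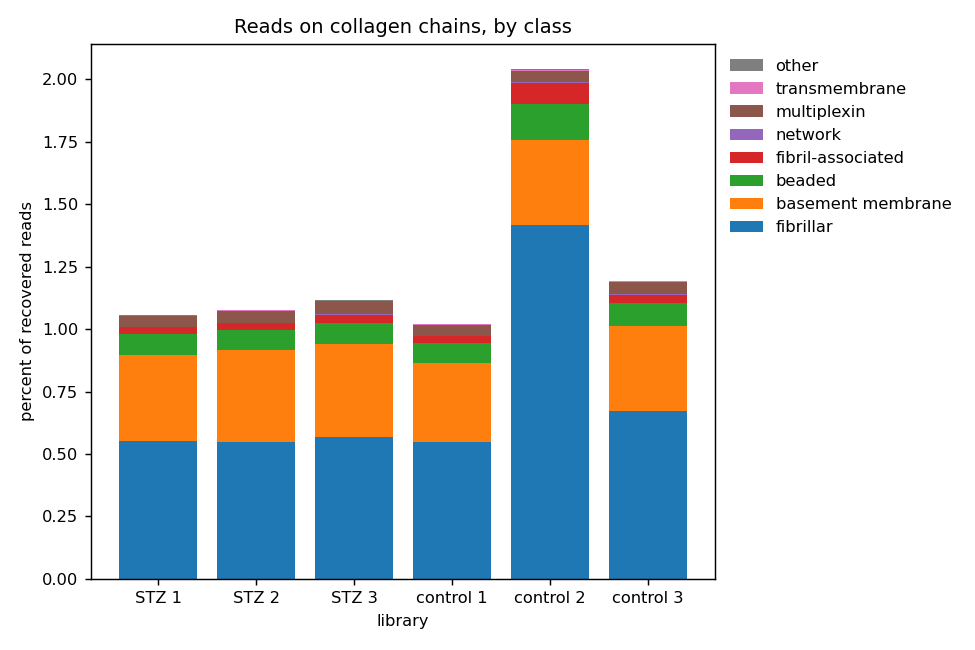
Reads on collagen chains as a percentage of recovered reads, stacked by structural class, in each library. The bar of control 2 reaches 2.04 percent, against 1.02 to 1.19 percent in the other 5 libraries, and the fibrillar chains make up most of the difference.

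The comparison of STZ with control hearts addresses whether STZ given to the pregnant mother changes the collagen transcripts of the newborn heart. Maternal diabetes and other effects of the injection cannot be told apart in it. It was made with limma on log2(FPKM + 1) over all genes that reached 1 FPKM in 3 or more libraries, which kept 12431 genes and 23 of the 44 chains. No collagen chain passed a Benjamini-Hochberg (BH) adjusted p of 0.05 in either direction, where 0.0161% of all genes tested passed as higher and 0.00804% as lower (0.0241% in either direction). The adjusted p of the 23 chains ran from 0.922 to 0.991 (limma). At an unadjusted p under 0.05 there were 2 chains, Col8a1 and Col6a3, both lower, or 2 of 23 against 1.42% of all genes lower and 2.59% in either direction. Limma-voom on the recovered reads also called 0 chains and likewise had 2 at an unadjusted p under 0.05, against 2.01% of all genes. The fold change was below 0 for 17 of the 23 chains, which is 73.9%, against 42.3% of all genes tested, and its median was -0.32 against 0.031 over all genes. Col8a1 passed the filter only through the 3 control hearts, so these counts describe the chains that passed and not the whole family. With no filter on low values, 36 of all 44 chains were below 0, against 52.2% of the 27486 genes then tested.

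Control 2 carried the highest value of 17 of the 23 tested chains, or 73.9%, against 27.4% of all genes tested. Without that library the median of the 23 chains was -0.061 against -0.0016 over all genes, 17 of 23 were below 0 against 50.6% of all genes, though 4 chains had turned direction (Col4a5 and Col8a2 to above 0, Col15a1 and Col18a1 to below 0), and 19 lay within 0.2 log2 units of 0. There 0 chains passed the adjusted threshold (limma), where 0.0322% of all genes did. At an unadjusted p under 0.05 (limma) there were 3 chains, Col8a1, Col6a3 and Col9a2, against 3.93% of all genes. Col8a1 reached 1 FPKM in control hearts alone and, with control 2 left out, Col9a2 in STZ hearts alone. That count is therefore a description and no support. With all 6 libraries the groups did not overlap at 3 chains that were lower in STZ hearts (Col3a1, Col6a3 and Col8a1), against 3.62% of all genes, and at 2 that were higher (Col4a2 and Col26a1), against 4.92% of all genes, or 5 of 23 against 8.54% in either direction. Col6a3 (lower) and Col26a1 (higher) were separated under every scaling tried, and so was Col8a1 (lower), which entered the test only through the group where it is high. Col3a1 overlapped under 4 of them (median-of-ratios, recovered reads, quantile and limma-voom) and Col4a2 under quantile normalization. Under 3 of these scalings (recovered reads, quantile and limma-voom) Col5a1 was separated as lower. Without control 2, where separated groups cannot come to overlap, 3 chains were separated as lower, against 8.55% of all genes, and 3 as higher with Col9a2 added, against 9.16%. In those libraries Col9a2 reached 1 FPKM only in the group where it is high, as did Col8a1, so these counts are no support. Without control 1, 12 chains were separated as lower, against 8.30% of all genes, and 10 had an unadjusted p under 0.05, against 4.43%, with 0 past the adjusted threshold. Leaving out STZ 1 gave 6 chains separated as lower, against 8.03% of all genes. Leaving out STZ 2 gave 5, against 5.99%, and leaving out control 3 gave 5, against 9.67%.

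**Figure D4:**
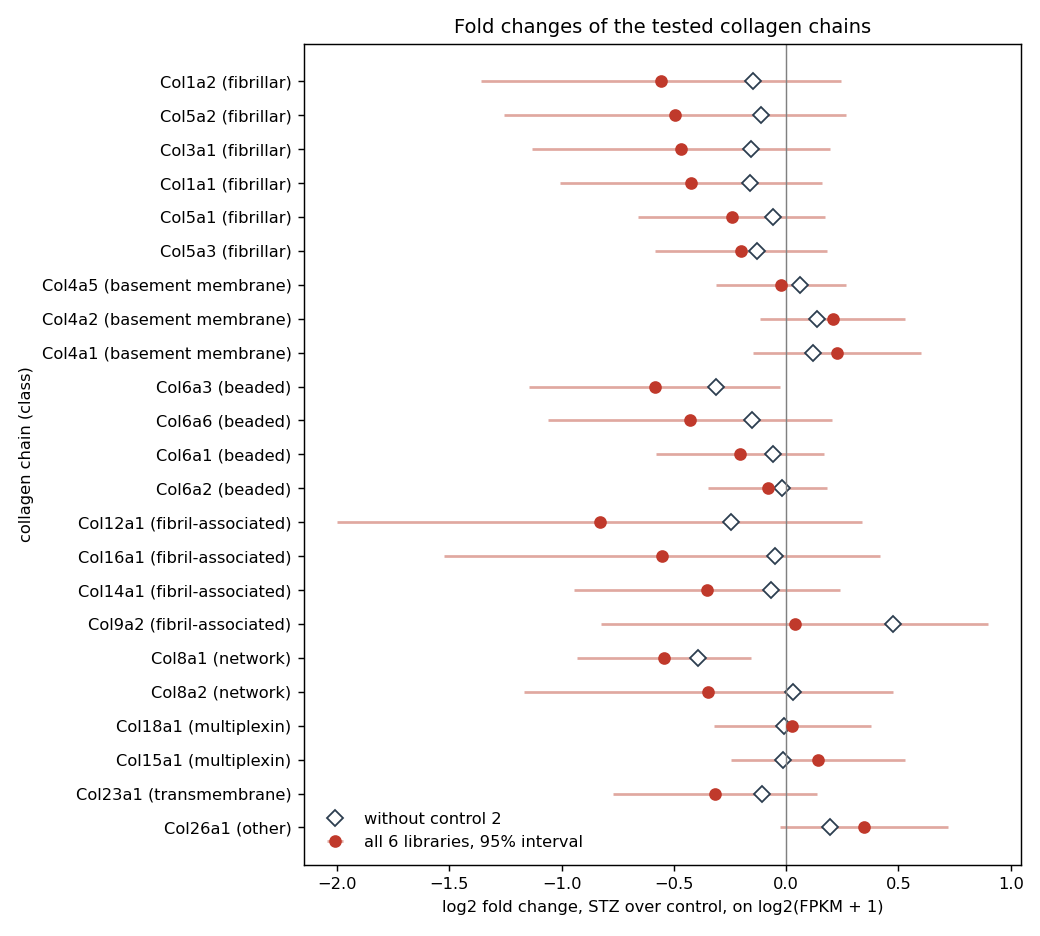
Log2 fold changes, STZ over control, of the 23 tested chains by class, with 95% intervals from the limma fit of all 6 libraries (filled circles) and values without control 2 (open diamonds). Without control 2, 21 of 23 values lie closer to 0, and the intervals of Col6a3 and Col8a1 with all libraries lie wholly below 0.

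All 6 tested fibrillar chains had fold changes below 0 with all libraries, between -0.56 and -0.20, and none passed the threshold. Col3a1, the chain of type III collagen that forms fine, elastic fibres, was at 249.6, 255 and 257 FPKM in STZ hearts 1 to 3, against 257, 542 and 311 FPKM in control hearts 1 to 3. All STZ values lay below the lowest control value, that of control 1, but STZ 3 and control 1 were nearly equal. Its log2 fold change was -0.47 (SE 0.280) with all libraries and -0.16 without control 2. Col1a1, which supplies the major chain of type I collagen in thick fibres, was at 197, 182 and 191 FPKM in STZ hearts 1 to 3, against 193, 368 and 234 FPKM in control hearts 1 to 3. STZ 1 lay above control 1, so the groups overlapped, and the fold change of -0.42 (SE 0.246) became -0.16 without control 2. Col1a2, the partner chain of Col1a1 in type I collagen, was at 83.8, 83.1 and 86.3 FPKM in STZ hearts 1 to 3, against 84.6, 220.0 and 104 FPKM in control hearts 1 to 3. Control 2 alone was 2.34 times the mean of controls 1 and 3, and the fold change of -0.56 (SE 0.337) became -0.15 without it. The type V chains Col5a1 and Col5a2 make a minor collagen that seeds and limits the width of type I fibres. Col5a1 was at 53.0, 53.5 and 51.0 FPKM in STZ hearts 1 to 3, against 56.3, 80.6 and 53.4 FPKM in control hearts 1 to 3, and its fold change was -0.24 (SE 0.174). Col5a2 was at 18.7, 19.7 and 21.2 FPKM in STZ hearts 1 to 3, against 18.7, 49.0 and 24.9 FPKM in control hearts 1 to 3, with a fold change of -0.50 (SE 0.321). Both overlapped between groups on the deposited scale, and the fold changes moved to -0.061 and -0.11 without control 2. Col5a3, a less abundant type V chain, was at 3.29, 3.69 and 2.94 FPKM in STZ hearts 1 to 3, against 2.95, 4.44 and 4.60 FPKM in control hearts 1 to 3, with overlapping groups and a fold change of -0.20 (SE 0.162), or -0.13 without control 2.

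The 3 tested basement membrane chains went the other way or stayed near 0. Col4a1 and Col4a2 form the type IV heterotrimer found in basement membranes throughout the body. Col4a1 was at 270.2, 292 and 287 FPKM in STZ hearts 1 to 3, against 250.0, 209 and 271 FPKM in control hearts 1 to 3. STZ 2 and STZ 3 exceeded all controls and STZ 1 lay just below control 3, with a fold change of 0.23 (SE 0.158) and 0.12 without control 2. Col4a2 (ENSMUSG00000031503, GRCm38 chromosome 8, 11312805 to 11449287, plus strand) was at 186, 198 and 202 FPKM in STZ hearts 1 to 3, against 178, 153 and 176 FPKM in control hearts 1 to 3. All 3 STZ values lay above all 3 control values, and the fold change of 0.21 (SE 0.136) was 0.14 without control 2. Neither chain passed the threshold (limma, BH-adjusted p = 0.922 for both). The genes lie head to head on chromosome 8 and overlap by 22 bases on opposite strands, where reads of the pair cannot be separated, since no strand setting is stated. Col4a5, an X-linked chain that joins kidney and other specialised basement membranes, was at 21.1, 24.2 and 23.4 FPKM in STZ hearts 1 to 3, against 21.2, 26.3 and 22.5 FPKM in control hearts 1 to 3, with overlapping groups and a fold change of -0.023 (SE 0.122) that turned to 0.062 without control 2. Its head-to-head neighbour Col4a6 was not tested, at 3.38 FPKM in control 2 and between 0.648 and 1.02 FPKM elsewhere. The head-to-head pair Col4a4 and Col4a3, chains of the kidney glomerular basement membrane, was also below the filter. Col4a4 was nevertheless separated, at 0.699, 0.594 and 0.549 FPKM in STZ hearts 1 to 3, against 0.901, 1.57 and 0.807 FPKM in control hearts 1 to 3, from 106 to 357 reads per library, whereas Col4a3 overlapped between groups.

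Type VI collagen is assembled from Col6a1, Col6a2 and a long chain, in most tissues Col6a3, and links the basement membrane to the interstitial fibres. Col6a3 had the largest fold change of the 4 tested chains of this class, at 8.82, 9.52 and 9.03 FPKM in STZ hearts 1 to 3, against 10.3, 21.1 and 13.0 FPKM in control hearts 1 to 3. All STZ hearts lay below all control hearts, and the fold change of -0.58 (SE 0.235) remained at -0.31 without control 2, with an unadjusted p of 0.0427 with all libraries and 0.0289 without control 2 (limma, BH-adjusted p = 0.922 and 0.99987). Col6a1, by contrast, was at 75.8, 69.4 and 74.4 FPKM in STZ hearts 1 to 3, against 74.8, 104 and 77.6 FPKM in control hearts 1 to 3. Col6a2 was at 41.7, 39.8 and 40.0 FPKM in STZ hearts 1 to 3, against 41.5, 47.2 and 40.5 FPKM in control hearts 1 to 3. For both, controls 1 and 3 lay within or next to the STZ range, and the fold changes of -0.21 (SE 0.158) and -0.083 (SE 0.112) became -0.058 and -0.017 without control 2. Col6a6, an alternative long chain, averaged 4.61 ± 0.478 FPKM in STZ hearts and 6.89 ± 2.96 FPKM in control hearts (SD, n = 3 each), with overlapping groups and a fold change of -0.43 (SE 0.266), or -0.15 without control 2. Col6a5, another long chain, fell below the filter and was uneven among controls, at 0.0956, 0.0316 and 0.241 FPKM in STZ hearts 1 to 3, against 0.0631, 2.06 and 1.73 FPKM in control hearts 1 to 3. It exceeded 1 FPKM in controls 2 and 3 only.

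Fibril-associated collagens bind the surface of fibres and space them. Col14a1, which is prominent in tendon and skin and regulates fibre growth, was at 30.6, 33.9 and 35.9 FPKM in STZ hearts 1 to 3, against 32.1, 64.2 and 38.2 FPKM in control hearts 1 to 3. Its fold change of -0.35 (SE 0.250) became -0.066 without control 2, with overlapping groups. Col12a1 and Col16a1 had the highest values in control 2, at 7.12 and 15.9 FPKM. Elsewhere Col12a1 lay between 0.846 and 2.11 FPKM, and Col16a1 between 3.98 and 5.55 FPKM. Their fold changes of -0.83 (SE 0.492) and -0.55 (SE 0.408) became -0.24 and -0.048 without that library. Col9a2, a chain of the type IX collagen best known from cartilage, was at 1.62, 1.29 and 1.36 FPKM in STZ hearts 1 to 3, against 0.998, 3.31 and 0.516 FPKM in control hearts 1 to 3. Control 2 was the highest and controls 1 and 3 the lowest, so its fold change was 0.038 (SE 0.363) with all libraries and 0.47 without control 2.

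Among the network-forming chains, Col8a1 encodes a short-chain collagen of vessel walls and heart valves. It was at 0.754, 0.790 and 0.867 FPKM in STZ hearts 1 to 3, against 1.34, 2.26 and 1.38 FPKM in control hearts 1 to 3, from 104 to 378 reads per library. The highest STZ value lay below the lowest control value, that of control 1, and controls 1 and 3 were close to each other. The fold change was -0.54 (SE 0.163) with all libraries and -0.39 without control 2, with an unadjusted p of 0.0127 and 0.0214 (limma, BH-adjusted p = 0.922 and 0.99987). The fold change depended on the scale, at -0.93 with a pseudocount of 0.1 and -1.08 with limma-voom. Since Col8a1 reached 1 FPKM in the control hearts alone, its p-values are a description and no support. Its partner Col8a2 was at 1.28, 0.583 and 1.33 FPKM in STZ hearts 1 to 3, against 0.767, 3.36 and 1.25 FPKM in control hearts 1 to 3, with overlapping groups and a fold change of -0.35 (SE 0.346) that turned to 0.030 without control 2. Col10a1, the marker of hypertrophic cartilage, had at most 8 reads in any library.

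The multiplexins Col15a1 and Col18a1 lie in the zone between basement membrane and interstitium, and Col18a1 carries the endostatin domain. Col15a1 was at 45.8, 49.6 and 52.7 FPKM in STZ hearts 1 to 3, against 47.9, 35.8 and 51.7 FPKM in control hearts 1 to 3. Col18a1 was at 18.3, 23.4 and 25.8 FPKM in STZ hearts 1 to 3, against 21.3, 20.8 and 23.6 FPKM in control hearts 1 to 3. Both overlapped, and the fold changes of 0.14 (SE 0.162) and 0.027 (SE 0.147) turned to -0.013 and -0.0075 without control 2. Col26a1 was the tested chain with the largest positive fold change, at 3.40, 3.21 and 2.80 FPKM in STZ hearts 1 to 3, against 2.66, 1.62 and 2.56 FPKM in control hearts 1 to 3. All STZ hearts exceeded all control hearts, with a fold change of 0.35 (SE 0.157) that was 0.19 without control 2 (limma, BH-adjusted p = 0.922 and 0.99987). The transmembrane chain Col23a1 averaged 1.74 ± 0.116 FPKM in STZ hearts and 2.49 ± 0.938 FPKM in control hearts (SD, n = 3 each), with overlapping groups and a fold change of -0.32 (SE 0.191), or -0.11 without control 2.

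The 21 chains below the filter included 16 whose highest value was that of control 2. In 7 of them control 2 was the only library at 1 FPKM or more, among them Col24a1 at 3.80 FPKM, Col9a1 at 1.65 FPKM and Col9a3 at 1.32 FPKM. Col24a1 lay between 0.310 and 0.562 FPKM in the other libraries, and Col9a1 and Col9a3 at or below 0.139 FPKM. Col2a1, the main chain of cartilage, had at most 27 reads in any library. Of 7 cartilage markers 5 were highest in control 2, among them Acan, Comp and Cnmd, and Snorc had no read in any library. The summed FPKM of the cartilage markers was 1.55, 1.35 and 1.62 in STZ hearts 1 to 3, against 1.41, 9.87 and 1.89 in control hearts 1 to 3, and their part in these chains was not tested. The other 4 chains with control 2 as the only library at 1 FPKM or more were Col27a1 at 3.08 FPKM, Col11a2 at 1.29 FPKM, Col13a1 at 1.09 FPKM and Col4a4, given above. Col11a1, a fibrillar chain of cartilage, reached 1 FPKM in STZ 1 and control 2. Col7a1, the anchoring fibril chain of skin, and Col17a1, Col20a1, Col22a1, Col25a1 and Col28a1 stayed below 1 FPKM in every library. Among the lowest were Col6a4 and Col19a1, with at most 5 reads in any library, a depth at which no difference could be detected.

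Ratios of chains within a library do not depend on the scale set for that library. Over 10 ratios, log2 ratios were compared between groups by permutation (exact, two-sided), where 3 against 3 samples cannot give a p below 0.1. The ratio of Col4a1 to Col1a1, a measure of basement membrane against fibrillar transcripts, was 1.37, 1.60 and 1.50 in STZ hearts 1 to 3, against 1.29, 0.567 and 1.16 in control hearts 1 to 3. Every STZ heart exceeded every control heart, with a mean log2 difference of 0.65 (exact permutation p = 0.1, BH-adjusted over the 10 ratios 0.333) and 0.28 without control 2. The ratio of Col8a1 to Col1a1 was 0.00383, 0.00433 and 0.00453 in STZ hearts 1 to 3, against 0.00694, 0.00613 and 0.00592 in control hearts 1 to 3. It was lower in every STZ heart, and here control 2 lay between the other controls, with Col8a1 below 1 FPKM in all STZ hearts. The log2 difference of -0.58 (exact permutation p = 0.1, BH-adjusted 0.333) was -0.60 without control 2. As for Col8a1 itself, these values are a description and no support. The ratio of Col6a3 to Col6a1 was 0.116, 0.137 and 0.121 in STZ hearts 1 to 3, against 0.138, 0.203 and 0.168 in control hearts 1 to 3. STZ 2 lay just below control 1, and the log2 difference of -0.42 (exact permutation p = 0.1, BH-adjusted 0.333) was -0.29 without control 2.

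Other pairs of chains, among them chains that assemble with each other, were compared in the same way. The ratio of Col1a1 to Col1a2 was 2.35, 2.19 and 2.22 in STZ hearts 1 to 3, against 2.28, 1.67 and 2.26 in control hearts 1 to 3. Control 2 alone was low, and without it the mean log2 difference between groups was -0.011. The ratio of Col1a1 to Col3a1 lay between 0.679 and 0.788 in the 6 libraries, and that of Col4a1 to Col4a2 between 1.36 and 1.54. These and the other 4 ratios had overlapping groups and exact permutation p-values from 0.3 to 0.9. Set against the fibroblast markers, summed fibrillar FPKM was 1.90, 1.70 and 1.80 times their sum in STZ hearts 1 to 3, against 1.59, 2.03 and 1.91 times in control hearts 1 to 3. On this scale the groups overlapped, and control 2 was the highest by a small margin over control 3.

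**Figure D5:**
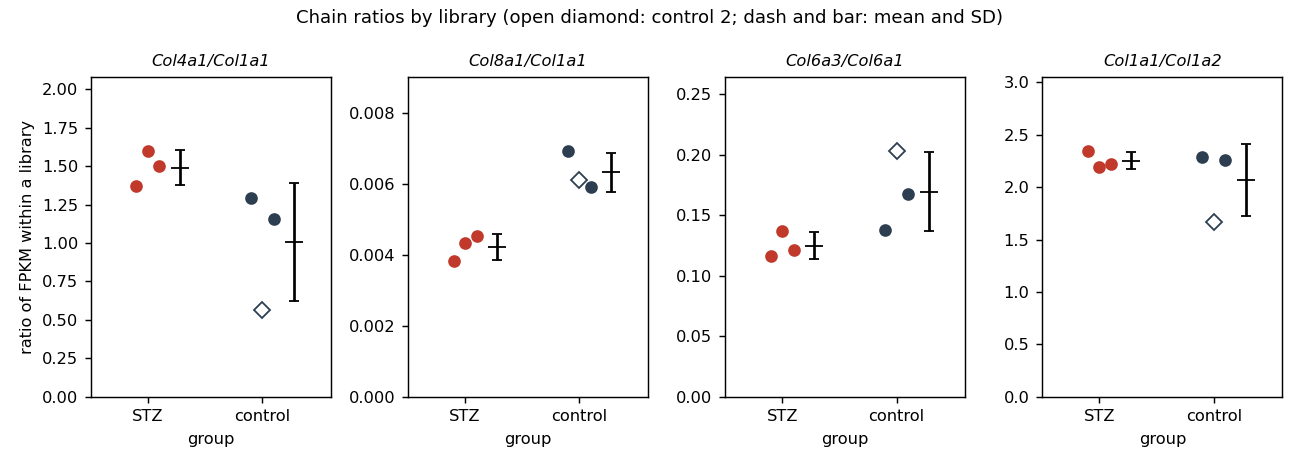
Ratios of FPKM between 2 chains within each library, STZ left of control, with the mean and SD of each group beside the points. The groups are separate for Col4a1/Col1a1, Col8a1/Col1a1 and Col6a3/Col6a1, and control 2 (open diamond) is the outlying control for Col4a1/Col1a1 and Col1a1/Col1a2 but not for Col8a1/Col1a1.

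The enzymes and partners that collagens need were followed in 6 lists, and no member passed the limma threshold. Among 15 tested genes of chain hydroxylation and glycosylation, 12 were below 0 with a median of -0.20, which was -0.012 without control 2. P4ha1, a prolyl hydroxylase that stabilises the helix, averaged 8.83 ± 0.226 FPKM in STZ hearts and 11.0 ± 2.90 FPKM in control hearts (SD, n = 3 each), with a fold change of -0.26 (SE 0.174), or -0.072 without control 2. P4ha2, its paralog, averaged 3.71 ± 0.430 FPKM in STZ hearts and 4.03 ± 0.527 FPKM in control hearts (SD, n = 3 each), with a fold change of -0.094 (SE 0.124), or -0.012 without control 2. Plod2, the lysyl hydroxylase of fibrotic crosslinks, averaged 7.02 ± 0.926 FPKM in STZ hearts and 8.53 ± 1.96 FPKM in control hearts (SD, n = 3 each), with a fold change of -0.24 (SE 0.171), or -0.080 without control 2. Colgalt2, a galactosyltransferase of hydroxylysine, averaged 2.24 ± 0.199 FPKM in STZ hearts and 1.65 ± 0.658 FPKM in control hearts (SD, n = 3 each), with a fold change of 0.32 (SE 0.199), or 0.11 without control 2. Of 10 tested genes of folding and secretion, 8 were below 0 with a median of -0.15, or -0.066 without control 2. Serpinh1, the collagen chaperone HSP47, averaged 162 ± 4.35 FPKM in STZ hearts and 197 ± 43.8 FPKM in control hearts (SD, n = 3 each), with a fold change of -0.26 (SE 0.182), or -0.085 without control 2. Its groups did not overlap, with STZ 1 at 165.6 FPKM and control 1 at 167.9 FPKM. As a description, 1 gene of this list and 2 of the hydroxylation list were separated as lower, against 3.62% of all genes, and 0 as higher. Sec24d, a coat protein of the vesicles that carry procollagen, averaged 21.5 ± 2.51 FPKM in STZ hearts and 17.3 ± 5.08 FPKM in control hearts (SD, n = 3 each), with a fold change of 0.33 (SE 0.208), or 0.30 without control 2. Of 7 tested genes of propeptide processing, 5 were below 0 with a median of -0.13, or 0.0052 without control 2. Pcolce2 passed the filter only through the 3 control hearts and Tll2 only through the 3 STZ hearts, so the filter set their directions in these counts. Bmp1, a C-proteinase, averaged 10.8 ± 0.971 FPKM in STZ hearts and 12.3 ± 2.94 FPKM in control hearts (SD, n = 3 each), with a fold change of -0.16 (SE 0.168), or 0.014 without control 2. Pcolce, which enhances that cleavage, averaged 27.6 ± 2.44 FPKM in STZ hearts and 30.5 ± 5.32 FPKM in control hearts (SD, n = 3 each), with a fold change of -0.13 (SE 0.150), or 0.0058 without control 2. Tll2, a relative of Bmp1, averaged 1.58 ± 0.561 FPKM in STZ hearts and 0.663 ± 0.434 FPKM in control hearts (SD, n = 3 each), and as a gene tested only through the group where it is high it is given as values alone. Without control 2 the fold changes of P4ha1, P4ha2, Plod2, Serpinh1, Bmp1 and Pcolce lay closer to 0.

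Of the 13 crosslinking and fibril assembly genes, 11 were tested and all 11 were below 0, none past the threshold, with a median of -0.40 and -0.23 without control 2, against 0.031 and -0.0016 over all genes. At 8 of the 11 all STZ values lay below all control values, against 3.62% of all genes. The list was chosen with earlier results of these data known, so that count is a description and no support. Leaving out a control library could only keep or raise that count, which was 9 without control 2, against 8.55%. Some of the 8 rested on narrow gaps on the deposited scale. Lox was at 12.29 FPKM in STZ 3 and 12.35 FPKM in control 1, and Tnxb at 11.72 and 11.75 FPKM in the same libraries. Separation in this list was not followed under other scalings. Lox, the lysyl oxidase that starts covalent crosslinking of collagen, was at 10.2, 11.5 and 12.3 FPKM in STZ hearts 1 to 3, against 12.3, 51.1 and 16.9 FPKM in control hearts 1 to 3. Its fold change of -0.92 (SE 0.468) was -0.33 without control 2. Lum, a proteoglycan that binds fibrils, averaged 60.8 ± 3.88 FPKM in STZ hearts and 80.9 ± 12.3 FPKM in control hearts (SD, n = 3 each), and its fold change of -0.40 (SE 0.146) was -0.28 without control 2. Loxl2, an oxidase also active on type IV collagen, averaged 40.8 ± 2.18 FPKM in STZ hearts and 44.6 ± 7.15 FPKM in control hearts (SD, n = 3 each), with overlapping groups and a fold change of -0.11 (SE 0.144), or -0.22 without control 2. The fibroblast markers, which share Lum and Dcn with this list, were below 0 at 9 of 9 tested, with a median of -0.37, or -0.18 without control 2. Epicardial and mesothelial markers were below 0 at 6 of 7 tested and at 7 without control 2, with a median of -0.52, or -0.19 without control 2. Erythroid markers were below 0 at 6 of 6, with a median of -1.01, or -0.39 without control 2, and summed to 2228, 2387 and 4021 in STZ hearts 1 to 3, against 4927, 14546 and 2596 in control hearts 1 to 3. The part of these cell types in the crosslinking list was not tested.

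Of 6 tested receptor and uptake genes 3 were below 0, with a median of 0.023, and without control 2 there were 5, with a median of -0.064. Of 5 tested breakdown genes 3 were below 0, with a median of -0.10, and without control 2 there was 1, with a median of 0.041. Ddr2, the fibroblast receptor for fibrillar collagen, averaged 5.12 ± 0.507 FPKM in STZ hearts and 5.96 ± 0.444 FPKM in control hearts (SD, n = 3 each), with a fold change of -0.19 (SE 0.109), or -0.14 without control 2. All STZ values of Ddr2 lay below all control values on the deposited scale, but STZ 3 at 5.45 FPKM and control 1 at 5.48 FPKM were nearly equal. Mrc2, which takes up collagen fragments, averaged 6.49 ± 1.08 FPKM in STZ hearts and 9.69 ± 5.49 FPKM in control hearts (SD, n = 3 each), with a fold change of -0.41 (SE 0.325), or -0.015 without control 2. Mmp2, which encodes a gelatinase, averaged 55.0 ± 2.31 FPKM in STZ hearts and 64.2 ± 16.7 FPKM in control hearts (SD, n = 3 each), with a fold change of -0.19 (SE 0.189), or 0.0083 without control 2. For both, control 2 carried the difference between the group means. Mmp14, a membrane-bound collagenase, averaged 25.6 ± 1.59 FPKM in STZ hearts and 36.0 ± 12.4 FPKM in control hearts (SD, n = 3 each). All STZ values of Mmp14 lay below all control values, with a fold change of -0.43 (SE 0.224) that was -0.17 without control 2.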

How the data were processed

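The authors deposited 1 table of 6 libraries. Its values are FPKM-type: no header states the unit, which was read from the abbreviation in the table's name and from the values. Each deposited FPKM value times gene length came out as a whole number of reads within 0.01 for 100% of values. The submitters' processing notes name the build GRCm38 (mm10), and the labels' protocols name a SMARTER mRNA-seq kit. The sources used here name no aligner, counter or strand setting.

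Values were tested as log2(FPKM + 1) with limma 3.58.1 in R 4.3.3 (mean-variance trend, group as the only term, two-sided, BH adjustment over the 12431 genes that reached 1 FPKM in 3 or more libraries). This scale understates the change of low genes. The fit was tested on simulated counts, where it recovered most of the changed genes and made more false calls than the threshold allows. The simulation used the same dispersion for every gene and held no outlying library such as control 2. It therefore does not show what the fit could detect in these data. Chain ratios were tested by exact permutation, with 20 ways to assign the libraries. The collagen members, gene lists, ratios and alternatives were chosen with earlier results of these data known. Chains at a mean of 10 FPKM or more, and tested chains whose groups did not overlap, are given in every library. Of the lists, 12 genes fixed by name and the member of lowest p in each are named. Plots used matplotlib 3.10.9 (Python 3.11.15). Coding sequences came from GENCODE M21, in which all 44 chains have the position given in the deposited table. No pair of libraries of a group agreed within sampling noise (chi-square per degree of freedom of at least 12.8).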

Additional observations from a re-analysis of the deposited data

How the results depend on the processing

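No collagen chain passed the adjusted threshold under any of the 16 alternatives, 10 with all libraries and 6 that left out 1 library. The number of tested chains below 0 was 36 of 44 with no filter and 17 to 18 of 23 over fits without 1 library. The median fold change of the chains was -0.42 without control 3 and -0.061 without control 2, its extremes over those fits, and -0.090 with array weights, which gave control 2 a weight of 0.146. Chains separated between groups as lower numbered 3 to 12 over fits without 1 library, in which the share of all genes ran from 5.99% to 9.67%, the 12 being without control 1. With a mean of 5 FPKM or more, 1 chain was separated as higher, against 358 of 7211 genes, and Col26a1 was no longer tested. With quantile normalization 1 chain was separated as higher, against 587 of 12431 genes. Over all genes, 1 passed as higher with a pseudocount of 0.1, with no filter, with a mean of 5 FPKM or more and with limma-voom, and 0 with the replicate block and with protein-coding genes alone. As lower, 2 passed with quantile normalization, 6 with array weights, and 0 with limma-voom, the replicate block and protein-coding genes alone. Without 1 library these counts were 1 to 2 higher and 1 to 3 lower. Deviations of same-numbered libraries from their group means had r of 0.021, -0.041 and 0.092, and those of unlike-numbered libraries had r from -0.139 to 0.081. Control 2 enters the control mean, so these values do not settle whether replicate numbers pair the samples. With the replicate block 17 of 23 chains were below 0 and 0 passed.

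The directions of 5 chains turned under at least 1 alternative. Col18a1 was at -0.0042 with median-of-ratios scaling, -0.038 with scaling by recovered reads, -0.0056 with quantile normalization and -0.047 with limma-voom, and between -0.074 and 0.16 over fits without 1 library. Col4a5 was at 0.087 with array weights and between -0.086 and 0.062 without 1 library. Col9a2 was at -0.019 with scaling by recovered reads and between -0.28 and 0.47 without 1 library. Without 1 library Col15a1 ranged from -0.013 to 0.25 and Col8a2 from -0.62 to 0.030. The log2 ratio difference ranged from -0.011 to 0.21 for Col1a1/Col1a2, -0.0049 to 0.078 for Col1a1/Col3a1, -0.15 to 0.0064 for Col1a2/Col3a1 and -0.020 to 0.070 for Col4a1/Col4a2. The cause of these turns was not tested. Scaling by recovered reads moved the median of all genes to -0.025, with 55.9% of them and 19 of 23 chains below 0. Depth limits the chains with few reads, such as Col10a1 and Col2a1, for which differences could not be detected.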
